A study of Homo sapiens with 10 samples.

Results

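The genes described here are 10 genes of the JAK/STAT3 pathway and of cell survival downstream of it, namely JAK1, JAK2, STAT3, IL6ST, SOCS3, BCL3, BCL2L1, MCL1, PIM1 and CISH. They were chosen by name, and each symbol was matched to a single Ensembl identifier among the 58050 of the expression table. All 10 reached a mean of 1 TPM (a length-scaled abundance that adds up to the same total in every library) over the libraries and were among the 13581 genes tested. The question was whether their mRNA differed between HCT116 cells with and without CD276, a B7 family membrane protein for which JAK2 and STAT3 phosphorylation has been described in other work.

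In this pathway a cytokine of the interleukin-6 family binds its own receptor chain, which joins with the shared signalling chain gp130. The JAK kinases bound to these chains are then activated and phosphorylate STAT3, which enters the nucleus and switches on genes that include its own feedback inhibitor and several inhibitors of apoptosis. The step that activates STAT3 is a phosphorylation, which RNA levels do not measure. In colorectal cancer cells STAT3 is known for its part in growth and survival.

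The RNA was that of HCT116, a colorectal carcinoma cell line of human origin, grown in McCoy's 5A medium with fetal calf serum. There were 5 cultures of HCT116-WT and 5 cultures of HCT116-CD276KO cells, the latter edited by electroporation of Cas9 protein with a guide against CD276, and 1 library per culture. The HCT116-CD276KO cultures came from a single cell clone, so that an effect of the edit and a trait of the clone cannot be told apart. The p-values measure the spread between cultures of HCT116-WT and between cultures of that clone, not between clones. The protocol names a scrambled guide as control, and the labels do not say whether the HCT116-WT cultures received it. Neither the sample titles nor the culture protocol of these cells names an added cytokine.

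CD276 itself checked the labels: it stood between 38.08 and 53.61 TPM in HCT116-WT and between 4.4 and 7.42 TPM in HCT116-CD276KO libraries, a log2FC of -2.85 (SE 0.13, limma adjusted p = 1.39e-07). The log2 fold change (log2FC) is HCT116-CD276KO minus HCT116-WT on the log2(TPM + 1) scale throughout, which understates changes of genes with low TPM. Depth is unknown from TPM. Of the 9 epithelial and colonic markers, 6 were tested, EPCAM, CDH1, KRT8, KRT18 and KRT19 were lower in HCT116-CD276KO cells, CDX2 was present without a call, and KRT20, VIL1 and CEACAM5 stayed under 1 TPM. CDH1 was called in every fit, while the limma adjusted p reached 0.119 for EPCAM, 0.0692 for KRT8, 0.0532 for KRT18 and 0.263 for KRT19 in other fits. The summed level of these markers ran from 4182 to 4955 TPM in HCT116-WT and from 3318 to 3784 TPM in HCT116-CD276KO libraries. Of 6 leukocyte markers, 5 stayed under 1 TPM in every library, the exception being CD68, and of 7 fibroblast and endothelial markers 6 did, the exception being COL1A1. Their sums were between 9.12 and 15.34 TPM and between 6.18 and 9.46 TPM in HCT116-WT, and between 6.1 and 13.11 TPM and between 4.62 and 7.75 TPM in HCT116-CD276KO libraries. The part of these markers in the results was not tested. In bulk RNA fewer cells with a transcript and less of it per cell cannot be told apart.

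None of the 10 genes passed the threshold of an adjusted p under 0.05 in limma, and 2 of them, BCL2L1 and PIM1, had an unadjusted p-value under 0.05. Over all genes tested 4.87% were called, 4.09% lower and 0.781% higher, and 21.9% had an unadjusted p-value under 0.05. At that background a count of 0 of 10 says little about these genes as a set. The log2FC values of the 10 lay between -0.28 and -0.0012, and their median was -0.16, beside -0.09 for all genes tested. All 10 were below 0 on the values as deposited, as were 68.1% of all genes tested, whereas 8 were after median-of-ratios scaling, 7 after quantile normalization and 6 of 10 once the trends over transcript length and GC content had been taken out of each library, where 48.6% of all genes were below 0. The split of the calls over all genes moved as well: 556 lower and 106 higher genes on the values as deposited (84.0% lower), 386 and 197 after median-of-ratios scaling (66.2%), 385 and 253 after quantile normalization (60.3%), and 754 and 548 after the length and GC correction (57.9%).

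**Figure D1:**
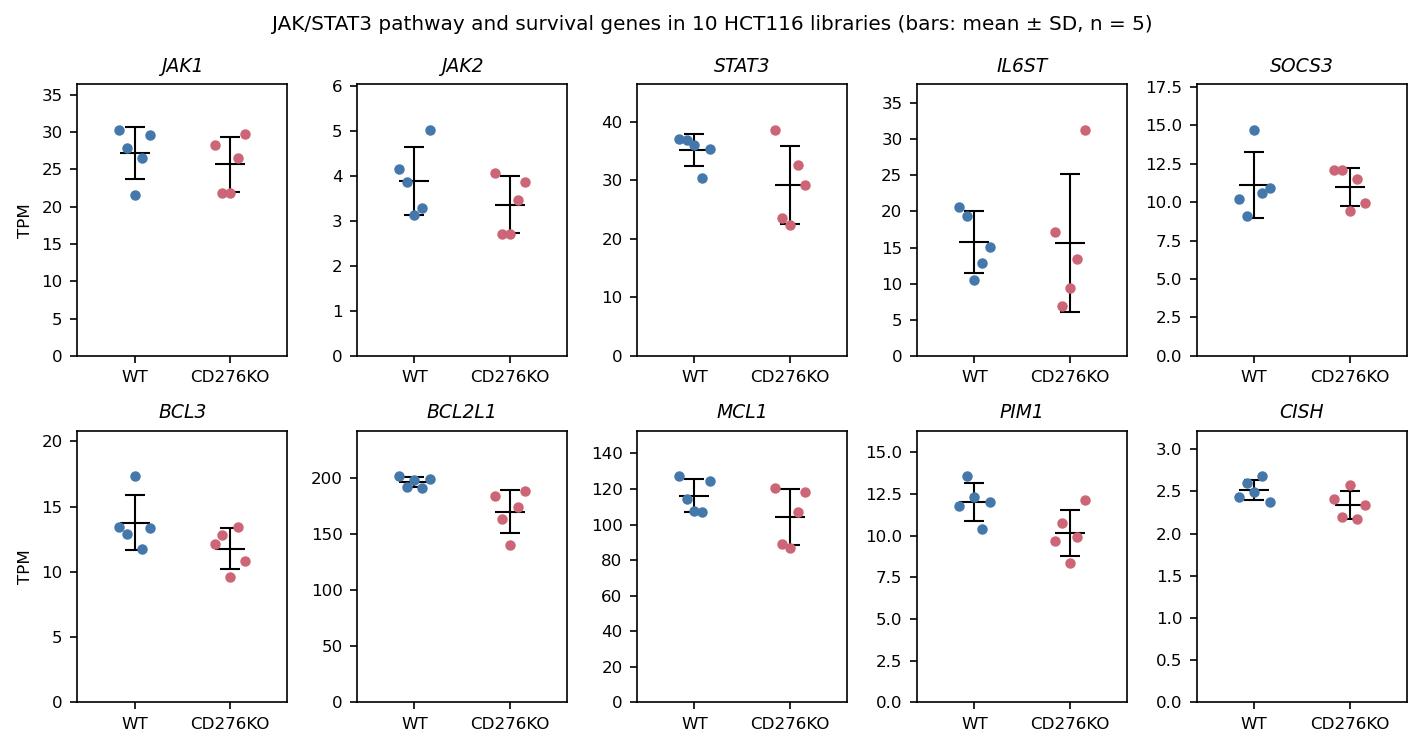
TPM (y axes, linear from 0, own scale per gene) of the 10 genes in 5 HCT116-WT (WT, blue) and 5 HCT116-CD276KO (red) libraries; each point is a library and the bars give the mean ± SD. The groups overlap in 9 of the 10 genes, and BCL2L1 is lower in all 5 HCT116-CD276KO libraries.

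The upstream part of the pathway comes first. IL6ST encodes gp130, the signalling chain shared by the receptors of the interleukin-6 family, and lies (ENSG00000134352) on chromosome 5 of hg38 from 55935095 to 55995022. It stood at 20.68, 19.42, 10.55, 12.8 and 15.14 TPM in replicates 1 to 5 of HCT116-WT and at 17.17, 6.96, 9.41, 13.39 and 31.31 TPM in replicates 1 to 5 of HCT116-CD276KO. HCT116-CD276KO cultures held both the lowest and the highest value, and the groups overlapped. The log2FC was -0.14 with a 95% interval from -0.86 to 0.57 (limma adjusted p = 0.818), the widest interval of the 10 genes. Without HCT116-CD276KO replicate 2 it was 0.08, with no call either way.

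JAK1 and JAK2 are the tyrosine kinases that sit on the cytoplasmic tails of such receptors. JAK1 (ENSG00000162434, chromosome 1, 64833223 to 65067754) stood at 30.3, 27.88, 21.57, 26.47 and 29.62 TPM in HCT116-WT and at 28.31, 21.79, 21.89, 26.51 and 29.77 TPM in replicates 1 to 5 of HCT116-CD276KO. All HCT116-CD276KO values lay inside the HCT116-WT range. Its log2FC was -0.08 (95% interval -0.33 to 0.17, limma adjusted p = 0.691), and it lay between -0.16 and -0.03 with 1 library left out.

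JAK2 (ENSG00000096968, chromosome 9, 4984390 to 5129948) was much lower in level, at 4.16, 3.87, 3.13, 3.3 and 5.03 TPM in HCT116-WT and 4.07, 2.71, 2.71, 3.46 and 3.87 TPM in replicates 1 to 5 of HCT116-CD276KO. The lowest values were those of HCT116-CD276KO replicates 2 and 3, and the other 3 libraries of the group lay within the HCT116-WT range. JAK2 had a log2FC of -0.17 (95% interval -0.46 to 0.13, limma adjusted p = 0.473), and -0.09 without HCT116-WT replicate 5. As TPM are divided by length, the kinases can be set side by side, but the length and GC trends of single libraries remain in their ratio. JAK1 was 7.06 ± 0.774 times the level of JAK2 in HCT116-WT and 7.69 ± 0.451 times in HCT116-CD276KO cells (SD, n = 5). The groups overlapped (two-sided exact permutation test, p = 0.135). The part of these trends in the ratio was not tested.

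STAT3, the transcription factor that gives the pathway its name (ENSG00000168610, chromosome 17, 42313324 to 42388540), had the largest log2FC of the 10 in size in the fit of all libraries on the values as deposited. After the length and GC correction BCL3 at -0.19, PIM1 at -0.14 and BCL2L1 at -0.14 were larger. Without HCT116-CD276KO replicates 2 and 3, STAT3 was at -0.08. There IL6ST at 0.32, PIM1 at -0.17, BCL3 at -0.16, BCL2L1 at -0.11 and CISH at -0.09 were larger. PIM1 and BCL3 were larger than STAT3 without HCT116-CD276KO replicate 2 alone, and IL6ST and PIM1 without replicate 5 alone. STAT3 stood at 37, 36.92, 36.01, 30.47 and 35.33 TPM in HCT116-WT and at 38.64, 23.63, 22.33, 32.56 and 29.13 TPM in replicates 1 to 5 of HCT116-CD276KO. The highest of all values was in an HCT116-CD276KO culture, and the other 4 cultures of that group lay below 4 of the 5 HCT116-WT cultures. The means were 35.1 ± 2.70 and 29.3 ± 6.68 TPM (SD, n = 5), and the log2FC was -0.28 (95% interval -0.57 to 0.01, limma adjusted p = 0.244). Its adjusted p-value came nearest to the threshold, at 0.0716, without HCT116-CD276KO replicate 1. Once corrected for length and GC, STAT3 had a log2FC of -0.11 (95% interval -0.29 to 0.07).

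SOCS3 and CISH encode feedback inhibitors of the SOCS family that are switched on by STAT factors. SOCS3 (ENSG00000184557, chromosome 17, 78356778 to 78360077), the classical feedback inhibitor of gp130 signalling, stood at 10.22, 9.07, 14.7, 10.57 and 10.9 TPM in HCT116-WT and at 12.07, 12.06, 9.41, 11.5 and 9.95 TPM in replicates 1 to 5 of HCT116-CD276KO. All HCT116-CD276KO values lay inside the HCT116-WT range. The means were 11.1 ± 2.13 and 11 ± 1.24 TPM (SD, n = 5), with a log2FC of -0.0012 (95% interval -0.26 to 0.26, limma adjusted p = 0.997).

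CISH (ENSG00000114737, chromosome 3, 50606489 to 50611774), better known as a target of STAT5, was the lowest of the 10 in level. It stood at 2.43, 2.6, 2.49, 2.68 and 2.38 TPM in HCT116-WT and at 2.41, 2.2, 2.58, 2.17 and 2.34 TPM in replicates 1 to 5 of HCT116-CD276KO. The values of the groups interleaved. Its log2FC was -0.07 (95% interval -0.26 to 0.11, limma adjusted p = 0.611).

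Among the survival genes BCL2L1 and MCL1 were the most abundant of the 10. BCL2L1, whose long isoform BCL-xL holds back mitochondrial apoptosis (ENSG00000171552, chromosome 20, 31664452 to 31723989), stood at 201.3, 191.8, 197.7, 191.1 and 198.9 TPM in HCT116-WT and at 184, 163.5, 140, 173.6 and 188.3 TPM in replicates 1 to 5 of HCT116-CD276KO. Every HCT116-CD276KO value was below every HCT116-WT value, and BCL2L1 was the only one of the 10 genes without overlap, where 7.61% of all genes tested had none. The means were 196 ± 4.48 and 170 ± 19.3 TPM (SD, n = 5), so that the HCT116-CD276KO mean was 86.6% of the HCT116-WT mean. The log2FC was -0.21 (95% interval -0.38 to -0.05), with limma adjusted p = 0.138, over the threshold, and a two-sided exact permutation test gave p = 0.00794, the smallest that 5 against 5 allow and not adjusted for the number of genes. TPM per gene do not separate the long isoform from the short one, BCL-xS, which has the opposite effect.

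MCL1, a short-lived inhibitor of apoptosis of the same family (ENSG00000143384, chromosome 1, 150560895 to 150579738), stood at 127.1, 114.4, 107.4, 107.2 and 124.5 TPM in HCT116-WT and at 120.4, 88.87, 86.69, 107 and 118.4 TPM in replicates 1 to 5 of HCT116-CD276KO. HCT116-CD276KO replicates 2 and 3 were the lowest, and replicates 1 and 5 lay within the HCT116-WT range. MCL1 had a log2FC of -0.16 (95% interval -0.39 to 0.06, limma adjusted p = 0.353), and -0.03 (95% interval -0.13 to 0.07) after the length and GC correction. Without HCT116-CD276KO replicate 3 it was -0.10. The ratio of BCL2L1 to MCL1 was 1.70 ± 0.113 in HCT116-WT and 1.64 ± 0.118 in HCT116-CD276KO cells (SD, n = 5), with overlap between the groups (two-sided exact permutation test, p = 0.429). The length and GC trends of single libraries remain in this ratio too, and their part in it was not tested.

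PIM1 encodes a serine/threonine kinase that STAT3 and STAT5 induce and that promotes survival (ENSG00000137193, chromosome 6, 37170152 to 37175428). PIM1 stood at 11.76, 13.57, 12.35, 10.43 and 12 TPM in HCT116-WT and at 9.67, 10.76, 8.34, 9.93 and 12.13 TPM in replicates 1 to 5 of HCT116-CD276KO. In HCT116-CD276KO cells 3 of the 5 values were below the HCT116-WT range. The log2FC was -0.23 (95% interval -0.45 to -0.01), with an unadjusted p-value of 0.0433 and limma adjusted p = 0.212.

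BCL3 encodes an atypical nuclear IκB protein that binds the p50 and p52 subunits of NF-κB (ENSG00000069399, chromosome 19, 44747705 to 44760044). BCL3 stood at 13.43, 12.89, 17.32, 11.76 and 13.38 TPM in HCT116-WT and at 12.15, 12.84, 9.62, 13.46 and 10.81 TPM in replicates 1 to 5 of HCT116-CD276KO. The groups overlapped, with the highest value in HCT116-WT replicate 3 and the lowest in HCT116-CD276KO replicate 3. The log2FC was -0.21 (95% interval -0.45 to 0.04, limma adjusted p = 0.299), and -0.13 without HCT116-WT replicate 3.

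**Figure D2:**
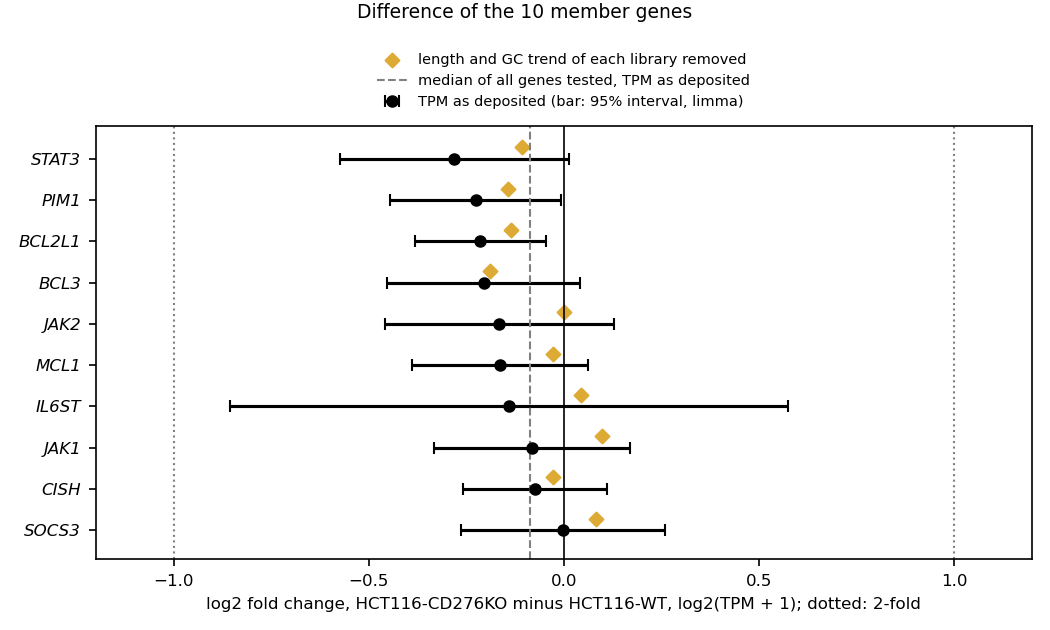
Log2FC of each gene (x axis, HCT116-CD276KO minus HCT116-WT on log2(TPM + 1)); black points and bars give the estimate and 95% interval from limma on TPM as deposited, yellow diamonds the estimate after the length and GC correction. The dashed line is the median of all genes tested, -0.09, the dotted lines mark 2-fold, and no interval reaches 2-fold in either direction.

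In the fit of all 10 libraries on the values as deposited, none of the 10 genes had a 95% interval that included a 2-fold change. IL6ST was the gene whose interval left most room, down to -0.86. Without HCT116-WT replicate 3 its log2FC was -0.26 with an SE of 0.351, against -0.14 and 0.327, which leaves more room still. Intervals with a library left out are not given here. Whether that of IL6ST stays short of 2-fold was looked at only in the fit of all 10 libraries. In the other 9 genes the lower ends lay between -0.57 in STAT3 and -0.26 in CISH and SOCS3, and the upper ends between -0.05 in BCL2L1 and 0.26 in SOCS3. A missed threshold does not show that the levels were the same.

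In HCT116-WT the order of the levels was BCL2L1, MCL1, STAT3, JAK1, IL6ST, BCL3, PIM1, SOCS3, JAK2 and CISH, from 196 to 2.52 TPM on average. Over the 5 cultures the values of IL6ST, BCL3, PIM1 and SOCS3 overlapped with their neighbours in that order, and those of the other neighbours did not. In HCT116-CD276KO cells the values of STAT3 and JAK1 overlapped too. IL6ST lay above all JAK1 values in replicate 5, at 31.31 TPM, and below all of them in the other replicates. BCL2L1 stood at percentile 93.7 of mean level among all genes tested and MCL1 at percentile 89.4, STAT3 at 67.0, JAK2 at 19.5 and CISH at 13.2.

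Libraries were not alike in their relation to transcript length. Across genes, the deviation of a library from the gene means had a Spearman correlation with transcript length that ran from -0.52 and -0.49 in HCT116-CD276KO replicates 2 and 3 to 0.43 in HCT116-WT replicate 1. In the same replicates 2 and 3 the 5 longest of the 10 genes were below their means. IL6ST was 0.96 and 0.57 below its mean over the 10 libraries on the log2(TPM + 1) scale, STAT3 0.41 and 0.49, and MCL1 0.30 and 0.33. These 3 genes have canonical transcripts of 9027, 4921 and 3950 bases. The shorter genes did not all differ from them. In HCT116-CD276KO replicate 3, BCL3, BCL2L1 and PIM1, with 1877, 2574 and 2703 bases, were 0.36, 0.38 and 0.36 below their means, and in replicate 2 BCL3 was 0.02 above, BCL2L1 0.15 below and PIM1 0.03 below. SOCS3, with 2734 bases, was 0.13 above and 0.20 below its mean in replicates 2 and 3, and CISH, with 2019 bases, was 0.10 below and 0.06 above.
After the correction the spread within the groups was smaller in 9 of the 10 genes, with CISH the exception, and in 76.0% of the 13472 tested genes with both values. In MCL1 it fell from an SD of 0.18 to 0.07 and in JAK1 from 0.20 to 0.08 on the log2 scale. The trends were fitted to the deviations of these same libraries, so a smaller spread in most genes is largely built into the correction. With this narrower spread 9.66% of genes were called, and still 0 of the 10. With HCT116-CD276KO replicates 2 and 3 both left out, a step chosen after seeing the data, 0 of the 10 were called as well. These log2FC values were 0.32 for IL6ST and -0.08 for STAT3. The part of the length trend in the differences between the groups was not tested.

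**Figure D3:**
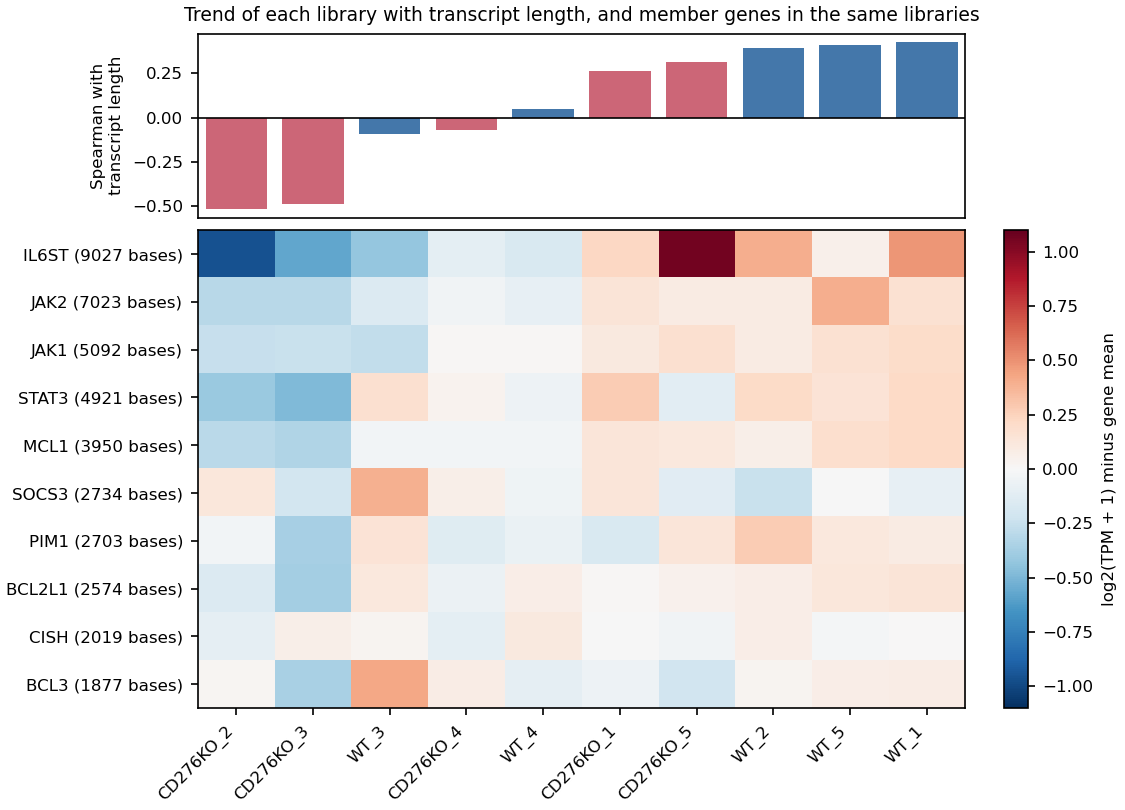
Above, Spearman correlation, over the tested genes, of transcript length with the deviations of each library (bars from 0; blue HCT116-WT, red HCT116-CD276KO), ordered from lowest to highest; below, in the same library order, log2(TPM + 1) of each gene minus its mean over the 10 libraries, with genes ordered by transcript length. The longest genes are low (blue) in HCT116-CD276KO replicates 2 and 3, and IL6ST is 1.06 above its mean in HCT116-CD276KO replicate 5.

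FBXL20, KDM3A, LPIN2, MOB1B and TUBGCP4 were the 5 genes whose profile over the 10 libraries was most like that of STAT3. STAT3 was taken as the member with the largest change in the fit of all libraries on the values as deposited. Likeness was the root mean square difference of log2(TPM + 1) values, each gene centred on its own mean. It was 0.061 for FBXL20 and 0.075 for TUBGCP4, against a median of 0.256 over all genes tested. The 5 were picked for the smallest differences, so values under the median were given by the choice. A gene with no change over the libraries would be at 0.2545. FBXL20 has a transcript of 10332 bases, KDM3A one of 4667, LPIN2 one of 6052, MOB1B one of 6930 and TUBGCP4 one of 6812. That of STAT3 has 4921 bases. The part of the length trend in this likeness was not tested. None of the 5 was called.

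Around these 10 genes, 107 further genes of the pathway were listed by role, and 82 of them were tested. In HCT116-CD276KO cells 3 of the 82 were lower and 1 was higher, which is 4.88%, beside 4.87% of all genes tested. Their median log2FC was -0.11. The 4 genes were ICAM1, SOCS6, IL4R and FOS. After the length and GC correction 9 of the 82 were called, these 4 and SBNO2, GADD45B, IL27RA, SOCS5 and PMAIP1, beside 9.66% of all genes.

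**Figure D4:**
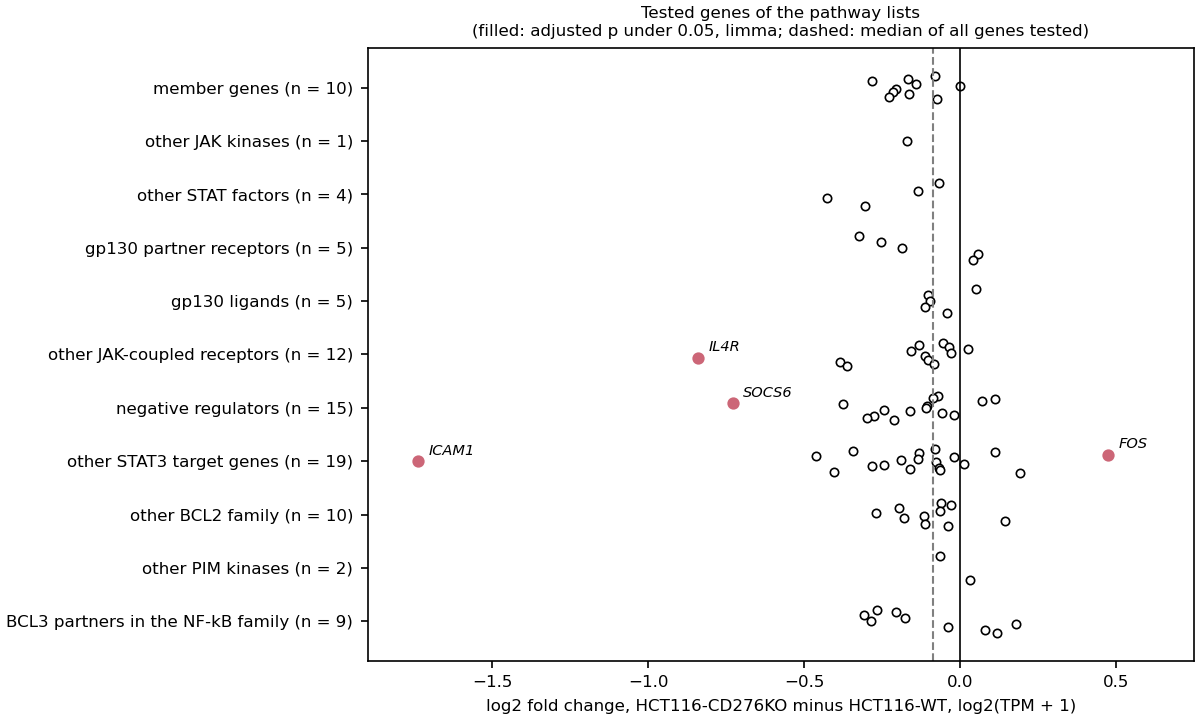
Log2FC values (x axis, HCT116-CD276KO minus HCT116-WT on log2(TPM + 1)) of the tested genes of each list, with the number tested; each point is a gene. Filled points passed the threshold in limma, and these are ICAM1 at -1.74, IL4R at -0.84, SOCS6 at -0.73 and FOS at 0.48.

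Among the cytokines of the interleukin-6 family, 5 of 10 were tested and none was called. LIF, leukaemia inhibitory factor, was the most abundant at 28 ± 1.67 TPM in HCT116-WT and 26.3 ± 4.41 TPM in HCT116-CD276KO cells (SD, n = 5), with a log2FC of -0.10 (limma adjusted p = 0.579). IL6 itself stayed at or under 0.06 TPM in every library, and OSM at or under 0.02 TPM.

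Of the listed receptor chains that are partners of gp130 or related to it, 5 of 7 were tested and none was called. OSMR, the oncostatin M receptor, stood at 28.6 ± 3.52 and 24.3 ± 5.79 TPM (SD, n = 5), with a log2FC of -0.25 (limma adjusted p = 0.334). IL27RA stood at 17.6 and 18.1 TPM on average, with a log2FC of 0.04. With the length and GC correction it was 0.14 (limma adjusted p = 0.0428).

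Of the other JAK kinases TYK2 was tested, at 28.5 ± 3.39 and 25.3 ± 3.30 TPM (SD, n = 5), without a call (limma adjusted p = 0.34). JAK3, the kinase of the common gamma chain of lymphoid cytokine receptors, averaged 0.96 and 0.95 TPM and was below the filter. Of the other STAT factors 4 of 6 were tested and none was called. STAT6, the factor of interleukin-4 signalling, averaged 19.4 and 15.6 TPM. In STAT6 the groups did not overlap, and its log2FC was -0.30 (limma adjusted p = 0.085).

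IL4R, the receptor chain that signals to STAT6, was the 1 gene called among 12 tested receptors of other cytokines that use JAK kinases. It stood at 23.01, 20.6, 20.72, 23.72 and 26.21 TPM in HCT116-WT and at 16.07, 10.89, 10.28, 10.6 and 14.46 TPM in replicates 1 to 5 of HCT116-CD276KO. The groups did not overlap. Its log2FC was -0.84 (SE 0.13, limma adjusted p = 0.00287), and it was called in all 19 other fits, with 1 library left out between -0.93 and -0.78. The most abundant genes of that list, IFNGR2 and IFNAR1 of the interferon receptors, had log2FC values of -0.13 and -0.04 without a call.

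SOCS6 was the 1 gene called among 15 tested inhibitors and phosphatases of the pathway. It encodes a SOCS family protein best known for its action on receptor tyrosine kinases rather than on gp130. It stood at 45.58, 41.33, 33.85, 40.17 and 44.18 TPM in HCT116-WT and at 26.84, 19.37, 21.09, 25.31 and 29.98 TPM in replicates 1 to 5 of HCT116-CD276KO, without overlap. For SOCS6 the log2FC was -0.73 (SE 0.12, limma adjusted p = 0.00517), and it was called in all 19 other fits. With the length and GC correction its spread within the groups fell from 0.21 to 0.05 on the log2 scale and its log2FC was -0.58. PTPN11, the phosphatase SHP2 that binds gp130, averaged 120 and 99.9 TPM, and PTPN2, which removes phosphate from STAT factors, 51.0 and 50.3 TPM, both without a call.

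Among 19 further genes described as STAT3 targets, ICAM1 was lower and FOS higher. ICAM1, the adhesion molecule that binds leukocyte integrins and is also a target of NF-κB, stood at 3.61, 2.86, 3.65, 2.44 and 2.98 TPM in HCT116-WT. In replicates 1 to 5 of HCT116-CD276KO it stood at 0.43, 0.13, 0.18, 0.18 and 0.22 TPM, all far under the lowest HCT116-WT value. The mean was 7.34% of the HCT116-WT mean. For ICAM1 the log2FC was -1.74 (SE 0.12, limma adjusted p = 7.28e-06), and without a pseudocount the mean TPM gave a log2 ratio of -3.77. That ratio rests on HCT116-CD276KO values near 0. ICAM1 passed the filter of 1 TPM only through its HCT116-WT values. In the fit of all genes above 0 TPM, without that filter, the limma adjusted p was 3.99e-05. ICAM1 was called in all 18 other fits that included it.

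FOS, an AP-1 subunit of the immediate early response, stood at 33.61, 38.6, 38.22, 27.66 and 38.22 TPM in HCT116-WT and at 59.38, 46.37, 43.08, 52.45 and 45.57 TPM in replicates 1 to 5 of HCT116-CD276KO. The groups did not overlap. FOS had a log2FC of 0.48 (SE 0.11, limma adjusted p = 0.0334), and 10 of 19 other fits lost the call. The adjusted p-value was 0.0901, 0.0538, 0.0622 and 0.0603 without HCT116-WT replicates 1, 2, 4 and 5, and 0.0505, 0.0541 and 0.0863 without HCT116-CD276KO replicates 1, 2 and 4. It was 0.0873 with replicate numbers blocked and 0.0756 with all genes above 0 TPM, and 0.0555 without HCT116-CD276KO replicates 2 and 3 together. With the length and GC correction FOS was called, with a log2FC of 0.53 (limma adjusted p = 0.00989). MYC and CCND1, the most abundant genes of this list, stood at 253 ± 22.7 and 239 ± 18.2 TPM, and at 573 ± 50.3 and 457 ± 84.6 TPM (SD, n = 5). Their log2FC values were -0.08 and -0.34, with adjusted p-values of 0.539 and 0.128 from limma.

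**Figure D5:**
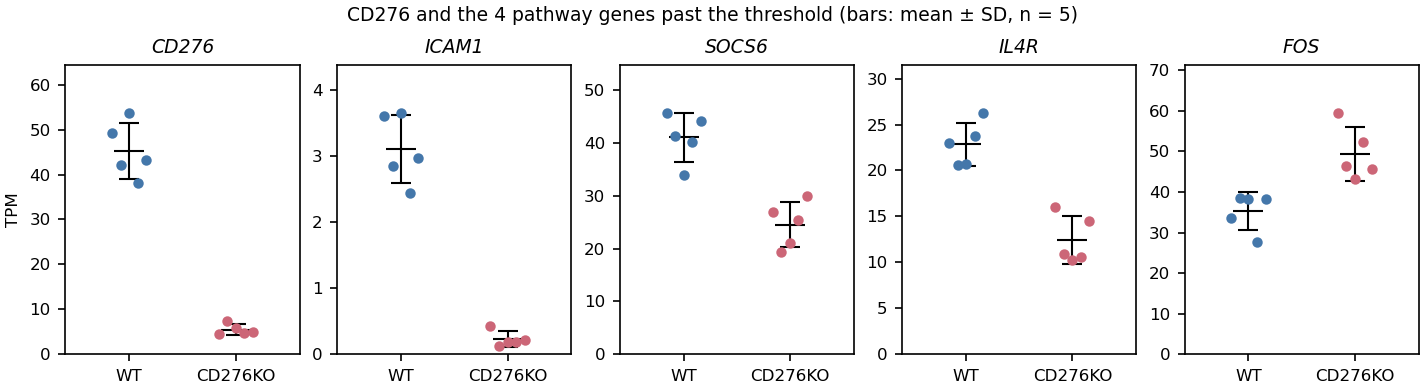
TPM (y axes, linear from 0) of CD276 and of ICAM1, SOCS6, IL4R and FOS in 5 HCT116-WT (WT, blue) and 5 HCT116-CD276KO (red) libraries, with mean ± SD. In each of the 5 genes the groups are apart, with FOS alone higher in HCT116-CD276KO cells.

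Among the other BCL2 family genes 10 of 15 were tested and none was called. The most abundant were the pro-apoptotic BAX, at 102 ± 22.3 and 98.7 ± 14.7 TPM, and BID, at 80.5 ± 12.8 and 73.9 ± 5.66 TPM (SD, n = 5). BCL2 itself was below the filter, at 0.72 and 0.48 TPM on average. The other PIM kinases differed between the groups by less than their spread, with PIM3 at 73.5 ± 10.1 and 75 ± 7.76 TPM and PIM2 at 12.5 ± 0.909 and 11.9 ± 0.72 TPM (SD, n = 5).

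The 9 listed genes of the NF-κB and IκB families were all tested and none was called. RELA, the p65 subunit, averaged 62.3 and 50.6 TPM, a log2FC of -0.31 (limma adjusted p = 0.128). NFKB2, the precursor of p52, averaged 53.0 and 45.7 TPM, a log2FC of -0.21 (limma adjusted p = 0.23).

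STAT dimers bind the palindrome TTCNNNGAA, and the promoters of the 10 genes and of the listed STAT3 targets were searched for it. RefSeq promoters of GRCh38.p14, each with 250 bases before and 50 after a transcription start, were read for 9 of the 10 genes. The motif reads the same on both strands, and TTCCNGGAA, the form with the inner bases fixed, lies within it. TTCNNNGAA was found in 7.66% of the 35116 promoters and TTCCNGGAA in 1.15%. Of the 9 genes CISH alone held the motif, at 4 places, and only 7 of all promoters held it 4 or more times. Of 15 other STAT3 target genes with a promoter in the table, BCL6, ICAM1 and IRF1 held it. These are counts of genes, and a gene can have several promoters: the 9 genes had 16. The shares over all promoters are per promoter and cannot be set against them. The bases before the start are shown for CISH (chr3:50611775-50612024, minus strand), which was not called, for ICAM1 (chr19:10270870-10271119, plus strand), which was lower, and for IRF1 (chr5:132490774-132491023, minus strand), which was not called, all 5′ to 3′, with TTCNNNGAA in capitals. They show where the motif lies in genes with and without a call, and were chosen after the matches and values were seen.
CISH: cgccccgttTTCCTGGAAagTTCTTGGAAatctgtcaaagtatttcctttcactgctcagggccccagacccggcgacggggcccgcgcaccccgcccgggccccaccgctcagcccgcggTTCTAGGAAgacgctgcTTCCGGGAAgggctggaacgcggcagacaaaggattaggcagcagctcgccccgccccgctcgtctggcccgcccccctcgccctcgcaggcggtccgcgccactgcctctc
ICAM1: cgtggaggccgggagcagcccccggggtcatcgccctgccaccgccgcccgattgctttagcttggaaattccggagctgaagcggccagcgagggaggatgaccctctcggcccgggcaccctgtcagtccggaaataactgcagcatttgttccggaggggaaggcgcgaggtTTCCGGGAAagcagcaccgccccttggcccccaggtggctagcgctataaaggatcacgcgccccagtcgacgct
IRF1: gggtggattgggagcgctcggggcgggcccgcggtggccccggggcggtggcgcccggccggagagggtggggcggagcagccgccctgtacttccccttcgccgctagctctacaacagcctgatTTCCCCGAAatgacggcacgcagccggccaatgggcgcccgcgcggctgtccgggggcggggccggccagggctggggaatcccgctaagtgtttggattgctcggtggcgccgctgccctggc
The matches in CISH begin at positions -241, -230, -129 and -112 from the start, and the first and the last have the inner bases of TTCCNGGAA. The match in ICAM1 begins at -75 and is letter for letter the same as the last match in CISH. IRF1, which encodes an interferon-induced transcription factor, had its match at -124 and a log2FC of -0.02 (limma adjusted p = 0.93). A match is a description of the letters and does not show that a factor binds there, and where none was found, only these letters are missing from that window.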

How the data were processed

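RNA of 5 HCT116-WT and 5 HCT116-CD276KO cultures was sequenced as polyadenylated, strand-specific single reads. STAR 2.5.2b was used by the authors for mapping to hg38. They quantified the genes of Ensembl v86 with RSEM 1.3.0 and featureCounts 1.5.1, and deposited TPM values with 2 decimals. Which program gave the TPM is not given in the sources used here. TPM keep no depth, so no counting interval is given.

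Genes averaging 1 TPM or more in the 10 libraries were fitted with limma 3.58.1 (R 4.3.3) on log2(TPM + 1), with empirical Bayes moderation, a trend of variance with level and p-values adjusted by Benjamini-Hochberg across the 13581 genes. The threshold was an adjusted p-value of 0.05, and intervals are 95% intervals of that fit. Exact permutation tests were two-sided, over the 252 splits of 5 against 5. Symbols, positions, transcript lengths and GC content came from GENCODE 44 on hg38. The length and GC correction subtracted, per library, a local regression with a span of 0.3. The other alternatives were a pseudocount of 0.1, filters at 0 and 5 TPM, median-of-ratios and quantile scaling, robust moderation, a block for replicate number, leaving out each library in turn and the log2 ratio of mean TPM. Leaving out HCT116-CD276KO replicates 2 and 3 together was added after seeing the data. Tables were made with Python 3.11.15, pandas 2.3.3 and numpy 2.4.6, and figures with matplotlib 3.10.9.

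The 10 genes and the lists were chosen with earlier results of these data known. Named were the 10 genes and CD276, the called genes and the 2 most abundant genes of each pathway list, and the 5 genes nearest to the profile of STAT3. Some genes that this rule names are not reported here. LCN2, CTF1, IRF1, BCL6, IL6, OSM, BCL2, SBNO2, GADD45B, SOCS5, PMAIP1 and the marker genes were named after their values were seen.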

Additional observations from a re-analysis of the deposited data

Results flagged for a closer look

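In groups of 5 values the gap between the highest or lowest value and its neighbour was set against the range of the group. Of 70 groups over the named genes 6 were over the limit of 0.71, where chance gives 3.5 (about 1 in 20). STAT3 stood at 30.47 TPM in HCT116-WT replicate 4 and its other 4 values were 35.33 to 37 TPM. Without that library the log2FC of STAT3 was -0.33. Past the limit, HCT116-WT replicate 3 was the highest of its group in 3 genes, MYC at 293 TPM (others 237.8 to 247), BID at 102.5 TPM (others 69.89 to 78.8) and NFKB2 at 64.85 TPM (others 48.51 to 52.62). BAX stood at 124.6 TPM in HCT116-CD276KO replicate 2 (others 88.11 to 94.75), and JAK3 at 1.38 TPM in HCT116-CD276KO replicate 1 (others 0.78 to 0.9). Over genes, the deviations of a library were most correlated with GC content (Spearman) in HCT116-WT replicate 3, at 0.61, and in HCT116-CD276KO replicate 2, at 0.48. The part of these trends in the values was not tested.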

How the results depend on the processing

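None of the 10 genes was called in any of the 19 other fits, in which their adjusted p-values ran from 0.0716 upwards, and CD276 stayed between -3.05 and -2.74. Signs of small changes turned. JAK1 was 0.0156 after median-of-ratios scaling, 0.0362 after quantile normalization, 0.10 after the length and GC correction and 0.0597 without HCT116-CD276KO replicates 2 and 3. SOCS3 was 0.0909, 0.13, 0.0826 and 0.0221 under the same settings and ran from -0.0631 to 0.10 with 1 library left out. IL6ST was 0.0438 after the length and GC correction, 0.32 without HCT116-CD276KO replicates 2 and 3, and from -0.42 to 0.0822 with 1 library left out. JAK2 was 0.0012 after the correction, and CISH 0.0077 after quantile normalization. Of the other pathway genes 9 were called after the correction, against 4. Over all genes 662 were called, 1302 after the correction, 378 with the replicate number as a block, 339 without HCT116-CD276KO replicates 2 and 3, and from 343 to 857 with 1 library left out: 345, 376, 421 and 343 without HCT116-WT replicates 1, 2, 4 and 5, and 407 and 375 without HCT116-CD276KO replicates 3 and 4. Settings with a library left out rest on fewer samples, and the cause of the other moves was not tested. To look for pairing, the group mean of each gene was subtracted and the remaining deviations of the libraries were correlated (Pearson). These deviations correlated between -0.18 and 0.12 in same-numbered libraries. In 1 HCT116-WT and 0 HCT116-CD276KO libraries they correlated best with those of their own number. The length and GC trends of single libraries enter these correlations, so they cannot decide whether the numbers pair the samples. The block ended the call of FOS. Depth is unknown from TPM.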

Other observations

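Several listed genes lay under the filter of 1 TPM. LCN2, the secreted iron-siderophore binding protein lipocalin 2 and a described STAT3 target, ranged from 0.79 to 1.38 TPM in HCT116-WT and from 0.2 to 0.44 TPM in HCT116-CD276KO libraries, without overlap. In the fit of all genes above 0 TPM its log2FC was -0.64 (limma adjusted p = 0.00522). CTF1, a cytokine of the interleukin-6 family, averaged 0.622 and 0.916 TPM, with overlap between the groups (adjusted p-value 0.336 in that fit). BCL6, a transcriptional repressor and described STAT3 target, averaged 5.95 and 4.08 TPM and had a log2FC of -0.46 (limma adjusted p = 0.0954). CDH1, the epithelial cadherin, fell from 42.7 ± 4.92 to 20.4 ± 5.73 TPM (SD, n = 5). Its log2FC was -1.07 (limma adjusted p = 0.00311).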
